A study of Mus musculus with 26 samples.

Results

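The 8 genes Gramd3, Morf4l2, Rnf125, Sgip1, Isy1, Bcat2, Tex2 and Spsb1 are little-studied genes that were chosen by their measured values, as genes much higher outside the thymus than in it that stand on no list of stress genes. They were found by symbol among 13765 genes, all 8 passed the filter on low values, and 9106 genes were tested. Because levels in these same pools chose them, their height over the thymus is given as a description, with no test. The rule states no numerical threshold, so no values just inside or outside one can be given.

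The cells were double positive (DP) T-cell precursors, which carry both CD4 and CD8 and normally live in the thymic cortex. They came from the aortic arch, from the adipose tissue of the mediastinum and from the thymus of female C57BL/6J mice aged 8 weeks, with 4 pools of 5 mice per tissue, and no genotype or treatment separates the groups. The sort kept live CD4+CD8b+ cells without T-cell receptor, and lysate of 200 cells went into each of 9 arch, 8 adipose and 9 thymus libraries, which the deposited table joins into 1 value per pool. Arch and adipose tissue were digested, while digestion is not stated for thymus, so digestion and tissue cannot be told apart. The series sets DP cells of these 3 sites side by side.

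At the DP stage thymocytes recombine the receptor alpha chain, and most of them are small resting cells that wait for selection. The 8 genes belong to different cell functions. Gramd3 and Tex2 encode proteins with lipid-handling domains, Sgip1 an endocytic adaptor, Morf4l2 a chromatin protein, Isy1 a splicing factor, Rnf125 and Spsb1 parts of ubiquitin ligases, and Bcat2 a mitochondrial enzyme of amino acid breakdown.

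Values are normalised read counts, that is reads divided by a size factor per pool, and recovered reads ranged from 11577253 to 34599519 per pool. The 10 sort and stage genes, Cd4, Cd8b1, Cd8a, Dntt and Rag1 among them, had reads in every pool, and their summed level was 9439 to 11670 CPM (counts scaled to a common library total) in arch pools, 8133 to 14330 in adipose pools and 19190 to 23000 in thymus pools. Cd24a, a surface protein of immature T cells, went against that order, with mean normalised read counts of 63070 in arch and 41810 in adipose tissue, against 11050 in thymus. Markers of other cell types were raised most in 3 pools. The summed level of the 8 fibroblast markers was 3764 CPM in arch pool 4. In arch pool 2 it was 181 CPM, and the 6 smooth muscle markers summed to 1850 CPM, the macrophage markers to 973 CPM and the B cell markers to 309 CPM. In adipose pool 1 the B cell markers summed to 1247 CPM, macrophage markers to 243, endothelial markers to 210, adipocyte markers to 185 and fibroblast markers to 115 CPM. Fibroblast markers summed to at most 3.83 CPM in the thymus pools. In the other arch and adipose pools the fibroblast sum was at most 22.7 CPM. Without these 3 pools the log2 differences of the 8 genes from thymus ran between 2.07 and 6.67 in arch and between 2.06 and 6.80 in adipose tissue.

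**Figure D1:**
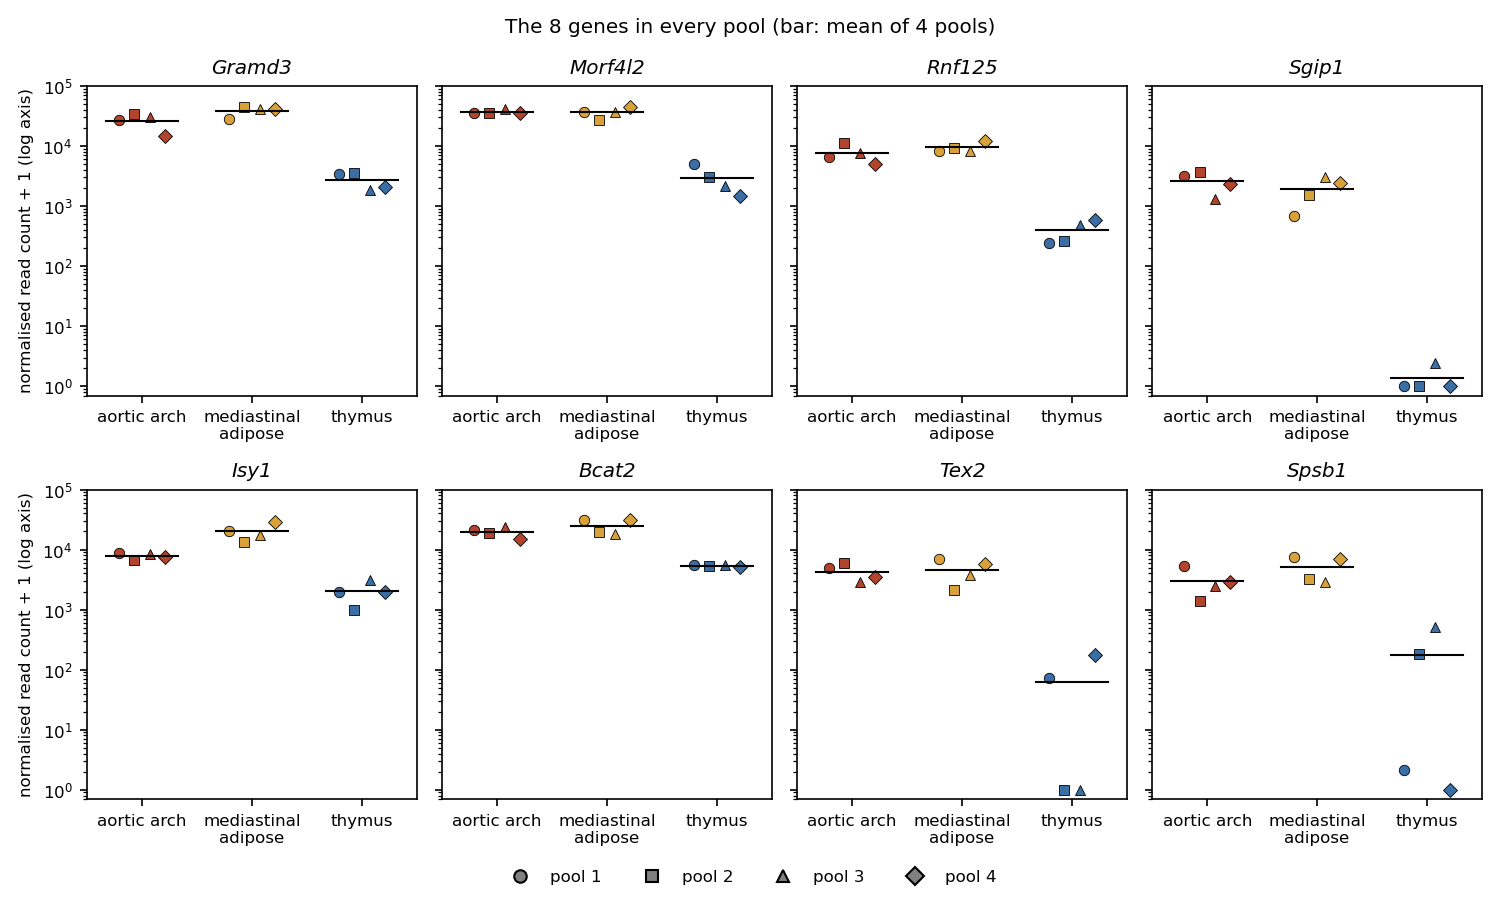
Normalised read count plus 1 of each of the 8 genes in every pool, on a log axis, with a panel per gene. Marker shapes are pool numbers and the bar is the mean of 4 pools; every arch and adipose point lies above every thymus point of its gene, and Sgip1 has a read in thymus pool 3 only.

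Start regions are shown for the 3 genes among the 8 in which the short site TGACG of the cAMP response element was found, since these are the windows the motif counts given later turn on. Each is the 250 bases before a transcription start in RefSeq's table for GRCm38.p6, written in the direction of the gene, with the short site in capitals on either strand. In the Morf4l2 window a pair of inverted heat shock units, GAACATTC, is also in capitals. The Sgip1 window lies on the plus strand of chromosome 4 at chr4:102759885-102760134, the Isy1 window on the minus strand of chromosome 6 at chr6:87838760-87839009, and the Morf4l2 window on the minus strand of the X chromosome at chrX:136741353-136741602.
Sgip1: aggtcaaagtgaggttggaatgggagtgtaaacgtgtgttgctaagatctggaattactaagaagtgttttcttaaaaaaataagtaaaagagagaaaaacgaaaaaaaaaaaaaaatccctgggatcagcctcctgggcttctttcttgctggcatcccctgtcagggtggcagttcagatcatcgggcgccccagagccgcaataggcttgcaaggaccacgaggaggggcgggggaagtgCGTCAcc
Isy1: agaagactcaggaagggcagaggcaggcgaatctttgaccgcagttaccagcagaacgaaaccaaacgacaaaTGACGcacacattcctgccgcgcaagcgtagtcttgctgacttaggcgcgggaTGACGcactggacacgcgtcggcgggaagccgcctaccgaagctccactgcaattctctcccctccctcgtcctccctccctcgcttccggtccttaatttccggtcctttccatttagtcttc
Morf4l2: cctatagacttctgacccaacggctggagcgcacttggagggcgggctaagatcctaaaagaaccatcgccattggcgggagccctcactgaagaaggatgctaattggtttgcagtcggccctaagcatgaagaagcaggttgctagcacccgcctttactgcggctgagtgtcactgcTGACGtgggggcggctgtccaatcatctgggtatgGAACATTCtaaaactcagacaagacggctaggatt

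Gramd3 lay far above its thymic level in both tissues. It encodes a protein with a GRAM domain, a fold that binds membrane lipids, and lies on chromosome 18 (56400337 to 56503792, plus strand, GRCm38). It had 27529, 33901, 29942 and 14497 normalised read counts in arch pools 1 to 4, 27712, 45180, 41751 and 41038 in adipose pools 1 to 4, and 3427, 3515, 1829 and 2074 in thymus pools 1 to 4. Arch pool 4 was the lowest outside the thymus and still 4.12 times the highest thymus pool. The arch mean was 26467 ± 8402 and the adipose mean 38920 ± 7688, against 2711 ± 884 in thymus (SD, n = 4 pools each). On the log2(normalised read count + 20) scale, used for every difference here, arch exceeded thymus by 3.27 ± 0.28 and adipose tissue exceeded thymus by 3.87 ± 0.28 (SE). In bulk samples, more cells that use a gene and more RNA of it per cell cannot be told apart.

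Tex2 was close to absent from the thymus pools. Its product has an SMP domain, which moves lipids between membranes where the endoplasmic reticulum touches other organelles, and the gene lies on chromosome 11 (106502147 to 106613423, minus strand). The arch pools had 4866, 5899, 2844 and 3490 normalised read counts, the adipose pools 6839, 2112, 3750 and 5769, and the thymus pools 71.9, 0, 0 and 176. Thymus pools 2 and 3 had no read, and the lowest arch and adipose pools were 16.2 and 12 times the highest thymus pool. The arch mean was 4275 ± 1372 and the adipose mean 4618 ± 2105, against 61.9 ± 83.1 in thymus (SD, n = 4 each). The log2 differences from thymus were 6.32 ± 0.70 in arch and 6.35 ± 0.70 in adipose tissue (SE), and they depend on the pseudocount because of the pools near 0.

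Sgip1 showed the widest gap of the 8. It encodes an endocytic adaptor of the muniscin family, known best from brain, that binds membranes and the clathrin adaptor AP2, and it lies on chromosome 4 (102741297 to 102973628, plus strand). Arch pools had 3178, 3694, 1323 and 2363 normalised read counts, adipose pools 681, 1522, 3086 and 2439, and thymus pools 0, 0, 1.46 and 0. The thymus value is 1 read in pool 3, and the other 3 thymus pools had none. The mean was 2639 ± 1035 in arch and 1932 ± 1052 in adipose tissue, against 0.364 ± 0.728 in thymus (SD, n = 4 each). The ratio of means to thymus was 7248 for arch (95% Poisson interval 1301 to 286290) and 5306 for adipose tissue (952 to 209560). These intervals cover counting error only, since the amplified reads have no molecular identifiers. With the pseudocount the log2 differences were 6.93 ± 0.75 in arch and 6.38 ± 0.75 in adipose tissue (SE), which understate such ratios. Of 6 neuron and glia markers listed, 1 is in the table, Tubb3, at 0 CPM in all arch pools and at most 27.0 CPM in adipose pools.

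Outside the thymus, Morf4l2 was the most abundant of the 8 per length, and it was the closest in its arch and adipose means. Its product, also called MRGX, works in complexes that add or remove histone acetylation, among them the TIP60 complex that its relative Morf4l1 joins. The gene lies on the X chromosome (136732942 to 136743690, minus strand). Arch pools had 34947, 35885, 41581 and 35077 normalised read counts, adipose pools 37026, 26922, 37359 and 45172, and thymus pools 4977, 3025, 2179 and 1488. The lowest adipose pool was 5.41 times the highest thymus pool. The mean of the arch pools was 36873 ± 3166 and that of the adipose pools 36620 ± 7481, against 2917 ± 1510 in thymus (SD, n = 4 each), and the log2 differences from thymus were 3.79 ± 0.28 in arch and 3.76 ± 0.28 in adipose tissue (SE). BC065397 overlaps Morf4l2 on the opposite strand, and whether strand was used in counting is not given in the sources used here, so reads of such pairs cannot be told apart.

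Isy1 was the only gene of the 8 whose arch and adipose pools did not overlap. It encodes a protein of the spliceosome that works beside the PRP19 complex and lies on chromosome 6 (87814269 to 87838798, minus strand), where Gm45140 overlaps it on the same strand. Arch pools had 8802, 6692, 8334 and 7541 normalised read counts, adipose pools 20507, 13134, 17183 and 29303, and thymus pools 1990, 1002, 3065 and 1969. Every arch pool lay between the thymus pools and the adipose pools. Arch pools averaged 7842 ± 927 and adipose pools 20032 ± 6877, against 2006 ± 843 in thymus (SD, n = 4 each). Arch exceeded thymus by 2.05 ± 0.31 and adipose tissue exceeded thymus by 3.35 ± 0.31 on the log2 scale (SE).

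Of the ubiquitin ligase genes, Rnf125 was the steadier. It encodes a RING ligase that marks the RNA sensor RIG-I for breakdown and was described in human T cells as a regulator of activation, and it lies on chromosome 18 (20944625 to 20983862, plus strand). Arch pools had 6654, 11208, 7639 and 4969 normalised read counts, adipose pools 8297, 9172, 8356 and 12286, and thymus pools 245, 258, 488 and 594. The lowest arch pool was 8.37 times the highest thymus pool. Arch pools averaged 7617 ± 2635 and adipose pools 9528 ± 1882, against 396 ± 173 in thymus (SD, n = 4 each), with log2 differences from thymus of 4.23 ± 0.35 in arch and 4.60 ± 0.35 in adipose tissue (SE).

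Spsb1 had wide differences between pools. It encodes an adaptor with a SPRY domain and a SOCS box that brings targets such as inducible nitric oxide synthase to a cullin ligase, and it lies on chromosome 4 (149896283 to 149955043, minus strand). The arch pools had 5272, 1381, 2441 and 2850 normalised read counts, the adipose pools 7465, 3230, 2898 and 6944, and the thymus pools 1.13, 178, 505 and 0. Thymus pools 1 and 4 held 2 reads and none, and arch pool 2 was 2.73 times thymus pool 3. Arch pools averaged 2986 ± 1645 and adipose pools 5134 ± 2404, against 171 ± 238 in thymus (SD, n = 4 each). The log2 differences from thymus were 5.05 ± 0.86 in arch and 5.86 ± 0.86 in adipose tissue (SE).

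Bcat2 had the smallest gap and the highest thymic level per length. It encodes the mitochondrial aminotransferase that starts the breakdown of leucine, isoleucine and valine and lies on chromosome 7 (45570153 to 45589711, plus strand), overlapped by the antisense transcript 0610005C13Rik. Arch pools had 21231, 19119, 23932 and 14918 normalised read counts, adipose pools 31171, 19760, 18469 and 31097, and thymus pools 5590, 5333, 5445 and 5098. The thymus pools differed little from each other, and every arch and adipose pool was at least 2.67 times the highest of them. The mean was 19800 ± 3804 in arch and 25124 ± 6960 in adipose tissue, against 5366 ± 207 in thymus (SD, n = 4 each). Log2 differences from thymus were 1.86 ± 0.21 in arch and 2.18 ± 0.21 in adipose tissue (SE).

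The 8 log2 differences thus ran between 1.86 and 6.93 in arch against thymus, with a median of 4.01, where the median over all 9106 tested genes was -0.20. In adipose tissue against thymus they ran between 2.18 and 6.38, with a median of 4.23, where all tested genes had a median of -0.01. All 8 were called higher in both comparisons by the rule used throughout, a Benjamini-Hochberg adjusted p under 0.05 from limma across all tested genes, as were 3.99% of the tested genes in arch and 2.17% in adipose tissue. All arch pools lay above all thymus pools in 6.6% of the tested genes, and all adipose pools did so in 5.48%. The values that chose the 8 genes fix both counts, and nothing is read from them. Of the tested genes, 277 (3.04%) lay above every thymus pool in both tissues, and the 8 are among them.

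**Figure D2:**
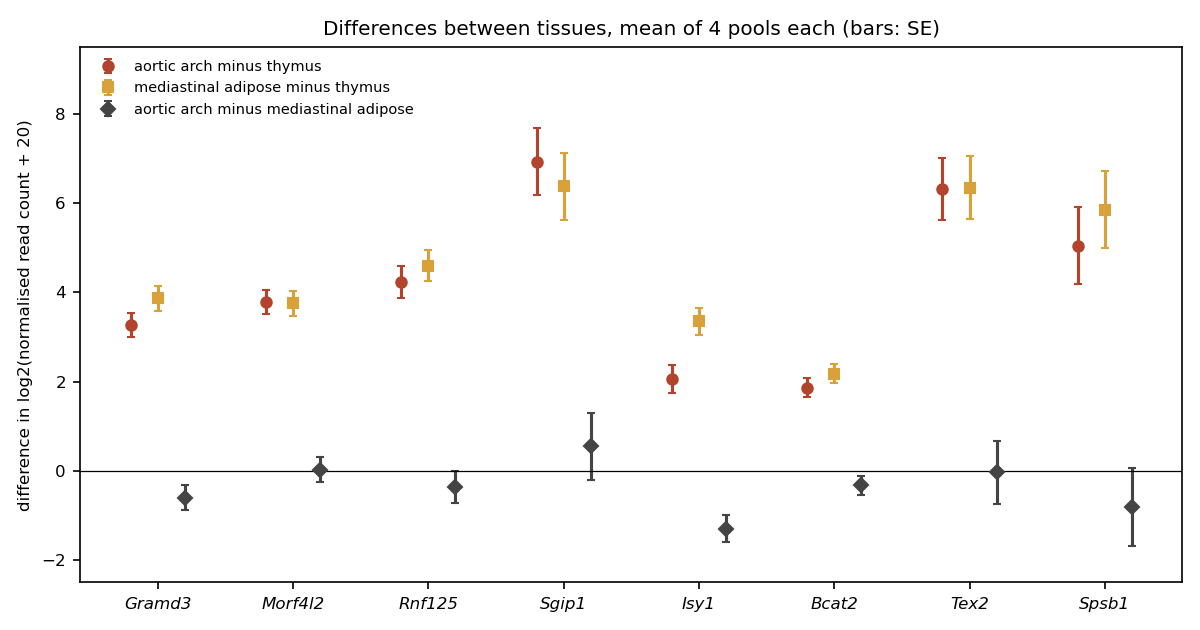
Difference in log2(normalised read count + 20) between tissues for the 8 genes, as fitted values with SE from 4 pools per tissue. Red circles are arch minus thymus, ochre squares adipose minus thymus and grey diamonds arch minus adipose; the differences from thymus lie between 1.86 and 6.93 and those between arch and adipose tissue between -1.30 and 0.55.

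Levels can be set against each other only per length, here as normalised read counts per kilobase of exon, which takes reads to cover exons evenly. Per kilobase, Morf4l2 stood first in arch with 11762 and Sgip1 last with 260, and Morf4l2 also stood first in adipose tissue with 11681 and Sgip1 last with 191. Behind Morf4l2 in arch came Bcat2 with 5077, Gramd3 with 4660 and Rnf125 with 4542 per kilobase, whose pool ranges overlapped, then Isy1 with 1165, Tex2 with 767 and Spsb1 with 679. In thymus the order differed, with Bcat2 first at 1376 and Morf4l2 second at 931 per kilobase. The lowest thymus levels per kilobase were those of Spsb1 at 38.9, Tex2 at 11.1 and Sgip1 at 0.0359.

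Arch and adipose pools of the 8 genes were then compared with each other, a contrast that the choice of genes did not use directly, although it used levels in the same pools. None of the 8 was called by limma, against 0.176% of the tested genes. At an unadjusted p under 0.05 there were 2 of 8, Isy1 and Gramd3, where 10.5% of all tested genes passed, and edgeR called none of the 8 while DESeq2 called 1, Isy1. Isy1 was lower in all 4 arch pools than in all 4 adipose pools, by -1.30 ± 0.31 on the log2 scale (SE, 95% interval -1.94 to -0.65; unadjusted p = 0.000518, adjusted p = 0.185, limma). The adjusted p for Isy1 ran between 0.000943 with DESeq2 and 0.665 without the 3 pools with raised markers. An exact two-sided permutation test of the Isy1 values gave p = 0.0286, the smallest that 70 assignments of 8 pools allow, and pool values did not overlap in 5.35% of the tested genes. The permutation test was run on each of the 8 genes without adjustment, and Isy1 had the smallest p, followed by Gramd3 with p = 0.0857.

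Gramd3 was lower in arch than in adipose tissue by -0.60 ± 0.28 on the log2 scale (SE, 95% interval -1.18 to -0.02; limma adjusted p = 0.468), and its pools overlapped. The other 6 genes had intervals that include 0. Morf4l2 had the narrowest margin about 0, at 0.03 with an interval of -0.55 to 0.61, and Tex2 differed by -0.03 with a wider interval of -1.51 to 1.44. The difference was -0.37 (-1.11 to 0.37) for Rnf125 and -0.32 (-0.77 to 0.12) for Bcat2. Spsb1 differed by -0.81 (-2.62 to 1.00) and Sgip1 by 0.55 (-1.03 to 2.13). These intervals leave room for a difference of 2-fold and more in Tex2, Spsb1, Sgip1 and Rnf125, so the tissues are not shown to be alike for them. The sign of the Morf4l2, Tex2, Sgip1 and Bcat2 differences turned under some alternatives, Morf4l2 also under another scaling.

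Adipose pool 4 lay above the adipose mean for all 8 genes, by 0.10 to 0.61 log2 units, and arch pool 4 below the arch mean for 7 of the 8, all but Spsb1. In arch pool 4 the deviations of Morf4l2, Sgip1 and Isy1 were small, at -0.07, -0.06 and -0.05. The shares of all tested genes on the same side of the mean in these pools are not given here. A shift of the whole pool thus cannot be told apart from a trait of the 8, and nothing is read from these counts. The SD of log2 values over the 4 arch pools was 0.119 for Morf4l2, 0.173 for Isy1 and 0.29 for Bcat2, and at most 0.788, for Spsb1, against a median of 1.04 over all tested genes. Over adipose pools it ran between 0.265 for Rnf125 and 0.947 for Sgip1, against a median of 0.732. The medians cover tested genes of any level, and choosing genes by height outside the thymus favours a small spread there. Nothing is therefore read from SDs below these medians. Thymus SDs were widest for Spsb1 at 2.36 and Tex2 at 1.65, genes with thymus pools at or near 0, and narrow for Bcat2 at 0.056, against a median of 0.742.

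After removal of tissue means, the correlation between the deviations of 2 of the 8 genes over the 12 pools lay between -0.67, for Tex2 and Spsb1, and 0.45, for Isy1 and Bcat2, as a description. Tex2 and Spsb1 deviated most in thymus pools, some of them without a read. Thymus pools 1 to 4 had 0.83, -1.37, -1.37 and 1.92 for Tex2 and -1.95, 1.28, 2.69 and -2.03 for Spsb1. The -0.67 is thus not read as opposite variation in arch or adipose pools. Over all 12 pools with tissue means kept, the 28 pairs correlated between 0.76 and 0.96, which the choice of the genes fixes. Arch pool 4, the pool with most fibroblast signal, was the lowest arch pool for Gramd3, Rnf125 and Bcat2, with deviations of -0.80, -0.55 and -0.39 log2 units. The lowest arch pool was pool 2 for Isy1 and Spsb1, pool 3 for Sgip1 and Tex2 and pool 1 for Morf4l2. The part of other cells in these low values was not tested.

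**Figure D3:**
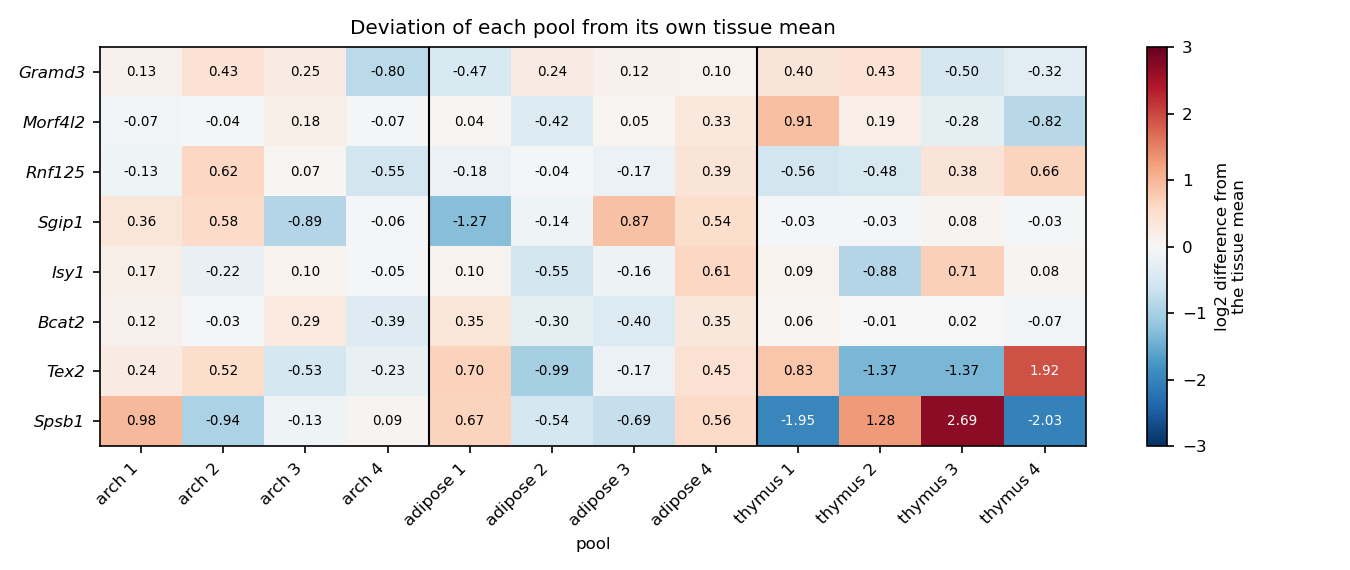
Heat map of the difference in log2(normalised read count + 20) between each pool and the mean of its own tissue, for the 8 genes (rows) in 12 pools (columns, arch, adipose, thymus). Red is above and blue below the tissue mean. The widest deviations are those of Spsb1 and Tex2 in thymus pools, up to 2.69. Adipose pool 4 is above its tissue mean for all 8 genes, with no share over all tested genes to set beside it.

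The tested genes whose pattern over the 12 pools was most like that of each of the 8 are named with Pearson's r of log2(normalised read count + 20), as a description in which tissue differences and depth are shared by all points. For Gramd3 these were Map3k5 (0.981), Ctla4 (0.968) and Gpr171 (0.968), and for Tex2 BC024659 (0.965), Odc1 (0.964) and Tnfrsf1b (0.961). For Sgip1 they were Crem (0.982), Hist3h2a (0.98) and Map1lc3a (0.968). Morf4l2 was most like Per1 (0.973), Dusp1 (0.971) and Fosl2 (0.968), and Isy1 most like Rnf145 (0.953), Acsl3 (0.951) and Syt13 (0.949). Fosl2, a subunit of the transcription factor AP-1, came up for 3 of the 8, also at 0.974 for Rnf125 after Tubb2a (0.982) and at 0.962 for Bcat2 after Vps37b (0.972). With tissue means removed, Fosl2 correlated at -0.02 with Morf4l2, 0.21 with Rnf125 and 0.52 with Bcat2. Map3k5 also came up for Rnf125 (0.963) and Acsl3 for Bcat2 (0.96). For Spsb1 the nearest were Pde4b (0.946), Stat5a (0.937) and Metap2 (0.916). None of the 8 was among the 3 genes nearest to another of them. Over all the genes named here, correlations with tissue means removed lay between -0.02, for Morf4l2 and Fosl2, and 0.86, for Gramd3 and Gpr171. The choice of the 8 for height outside the thymus favours high r values when tissue means are kept. The named genes were picked for the highest r over the same 12 pools, which also favours high r with tissue means removed. Nothing is therefore read from either set of correlations.

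The relatives and partners of the 8 genes were called at rates near those of all tested genes. Of 136 partner and pathway genes on 7 lists, 120 were tested. In arch against thymus 4 rose, Orai1, Slc3a2, Rnf138 and Cwc15, and 2 fell, Fcho1 and Irf3, where 3.99% of all tested genes rose and 2.58% fell. In adipose tissue against thymus 3 rose, Orai1, Slc3a2 and Rnf138, and none fell, where 2.17% of all tested genes rose and 0.67% fell. The median log2 difference over the 120 genes was -0.09 in arch and 0.01 in adipose tissue, close to the -0.20 and -0.01 of all tested genes. Both comparisons share the thymus pools.

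The list of membrane contact genes belongs to Gramd3 and Tex2. Of its 13 tested genes Orai1 rose in both tissues, the pore of the calcium channel that opens where the endoplasmic reticulum meets the plasma membrane. Orai1 had 6274, 8056, 10218 and 5818 normalised read counts in arch pools, 3006, 6118, 5908 and 4598 in adipose pools, and 644, 278, 0 and 368 in thymus pools. Neither tissue overlapped with thymus, while arch and adipose pools overlapped with each other. The log2 difference from thymus was 5.23 ± 0.74 in arch (limma adjusted p = 0.000185) and 4.58 ± 0.74 in adipose tissue (limma adjusted p = 0.000927). Gramd1a, a sterol carrier of the GRAM family, differed by -0.90 ± 0.53 in arch and -0.71 ± 0.53 in adipose tissue (limma adjusted p = 0.329 and 0.664). The SMP relatives Esyt1 and Esyt2, tethers between endoplasmic reticulum and plasma membrane, had differences of -2.0 ± 1.02 and -0.29 ± 0.52 in arch and of -0.54 ± 1.02 and -0.12 ± 0.52 in adipose tissue, none of them called. Gramd1b and Gramd1c were too low to test.

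On the clathrin list none of 20 tested genes rose, and Fcho1, the muniscin relative of Sgip1, fell in arch. Fcho1 had 145, 108, 96.1 and 65.3 normalised read counts in arch pools, 1005, 1308, 367 and 1390 in adipose pools and 1784, 1435, 2498 and 2179 in thymus pools. All arch pools lay below all adipose pools, and these below all thymus pools. Arch against thymus differed by -4.02 ± 0.65 (limma adjusted p = 0.000651) and adipose tissue against thymus by -1.07 ± 0.65 (limma adjusted p = 0.555). Arch against adipose tissue differed by -2.95 ± 0.65, with a limma adjusted p of 0.0977 that ran between 2.97e-08 with DESeq2 and 0.487 over the alternatives. Fcho2, the other relative, had -0.33 ± 0.94 in arch and -1.94 ± 0.94 in adipose tissue (limma adjusted p = 0.87 and 0.401). Of the muniscin reads per kilobase, Sgip1 held 76.5% ± 12.9 in arch and 43.2% ± 24.0 in adipose tissue, against 0.00585% ± 0.0117 in thymus (SD, n = 4 each). Because Sgip1 was chosen for its height over thymus, the gap in share from thymus is favoured by that choice.

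**Figure D4:**
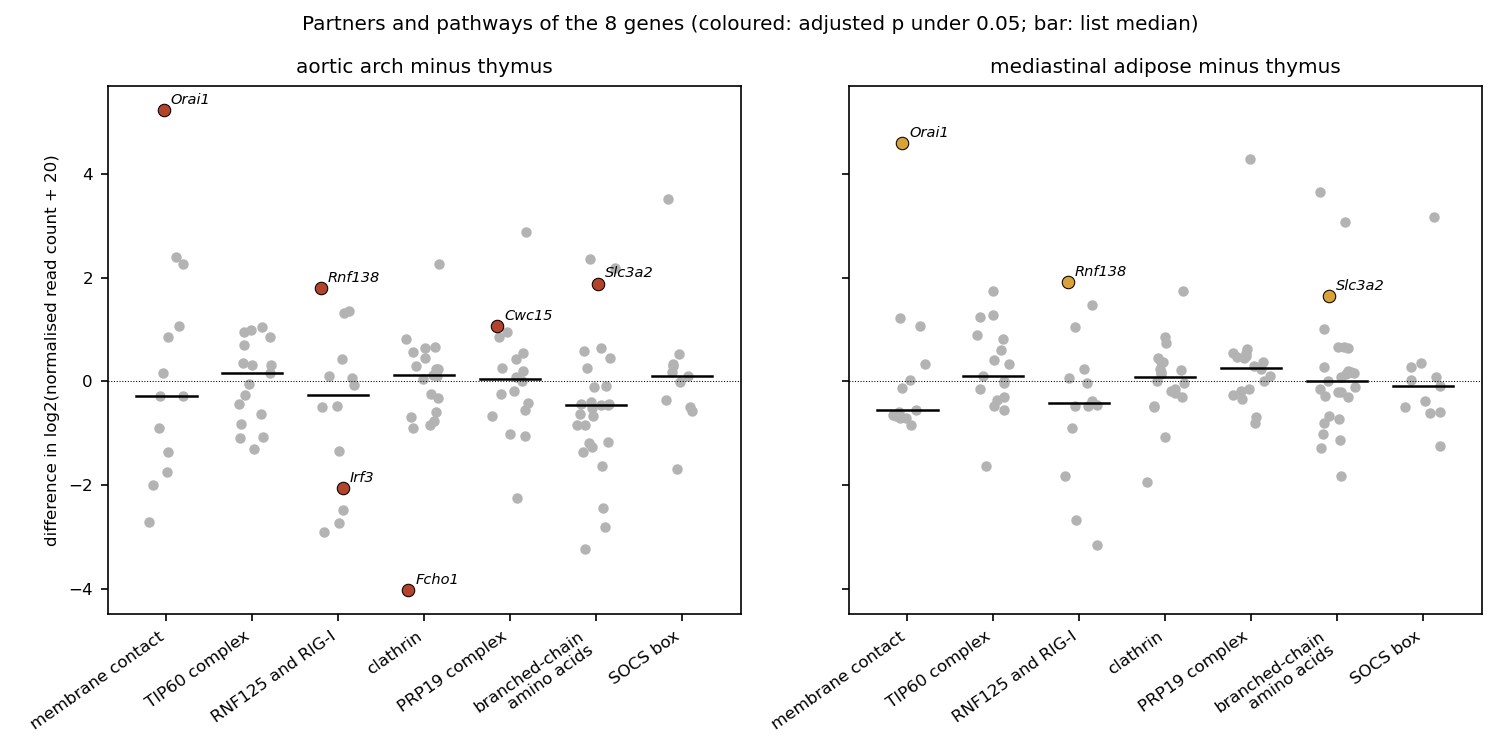
Difference in log2(normalised read count + 20) from thymus for the tested genes of the 7 partner and pathway lists, arch at left and adipose tissue at right, 1 point per gene. Coloured points have an adjusted p under 0.05 and are named, grey points do not, and the bar is the median of a list; Orai1 at 5.23 and Fcho1 at -4.02 are the outermost points in arch.

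None of the 17 tested genes of the TIP60 complex was called in either tissue. Morf4l1, the close relative of Morf4l2 in that complex, had 1305, 1560, 1365 and 1622 normalised read counts in arch pools, 1021, 986, 1296 and 971 in adipose pools and 913, 776, 679 and 833 in thymus pools. Its pools did not overlap between either tissue and thymus, yet the log2 differences of 0.86 ± 0.43 in arch and 0.41 ± 0.43 in adipose tissue were not called (limma adjusted p = 0.249 and 0.797). Morf4l2 made up 98.7% ± 0.189 of the reads per kilobase of the pair in arch and 99.0% ± 0.219 in adipose tissue, against 90.6% ± 4.17 in thymus (SD, n = 4 each). Choosing Morf4l2 for its height over thymus favours this gap in share. A pseudogene copy of Morf4l1 is annotated, to which its reads could also map, so its level is uncertain.

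Of the 14 tested genes of the Rnf125 family and the RIG-I pathway, Rnf138 rose in both tissues and Irf3 fell in arch. Rnf138, a RING ligase of the same family that acts in DNA repair, had 5880, 1575, 3977 and 6906 normalised read counts in arch pools, 3681, 3289, 5983 and 4956 in adipose pools and 1239, 949, 858 and 1653 in thymus pools. Arch pool 2 overlapped the thymus pools. The log2 difference was 1.80 ± 0.42 in arch and 1.92 ± 0.42 in adipose tissue (limma adjusted p = 0.0128 and 0.0131). With no intensity trend the Rnf138 call was lost in both tissues (limma adjusted p = 0.0652 in arch and 0.0919 in adipose tissue). In adipose tissue the Rnf138 call was also lost without adipose pool 3 (adjusted p = 0.0631) or adipose pool 4 (adjusted p = 0.0527), with log2 differences of 1.77 and 1.86. Irf3, the transcription factor that RIG-I signalling switches on, had 316, 668, 623 and 1200 normalised read counts in arch pools, 1392, 2138, 1010 and 1416 in adipose pools, and 3414, 1817, 2818 and 2985 in thymus pools. The log2 difference of Irf3 from thymus was -2.05 ± 0.47 in arch (limma adjusted p = 0.0107) and -0.89 ± 0.47 in adipose tissue (limma adjusted p = 0.455).

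The other relatives of Rnf125 were not called. Rnf114 differed from thymus by -0.06 ± 0.24 in arch and -0.48 ± 0.24 in adipose tissue (limma adjusted p = 0.909 and 0.444), and Rnf166 by -1.33 ± 0.40 and -0.48 ± 0.40 (limma adjusted p = 0.0535 and 0.714). Without arch pool 4 the Rnf166 difference in arch was -1.56 with an adjusted p of 0.0287. Of the reads per kilobase of the 4 relatives, Rnf125 held 56.0% ± 14.3 in arch and 62.4% ± 5.41 in adipose tissue, against 5.42% ± 2.38 in thymus (SD, n = 4 each). The choice of Rnf125 for its height over thymus favours this gap in share, so nothing more is read from it.

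The PRP19 list has 18 tested genes, among them Rab43, which is also a neighbour of Isy1 on the chromosome and is given again below as such. Of the 18, Cwc15, a component of that spliceosome complex, rose in arch. Cwc15 had 7588, 8430, 7919 and 5858 normalised read counts in arch pools, 3965, 4396, 3757 and 6650 in adipose pools, and 3740, 5808, 3419 and 2032 in thymus pools. The lowest arch pool was just above the highest thymus pool. The log2 difference from thymus was 1.07 ± 0.31 in arch (limma adjusted p = 0.0431), a call that 13 of 24 alternatives lost, and 0.38 ± 0.31 in adipose tissue (limma adjusted p = 0.697). Leaving out 1 pool lost it for arch pools 1, 2 and 3, thymus pools 1, 3 and 4 and adipose pool 3, with adjusted p-values up to 0.138. None of the 11 tested genes of the SOCS box list was called. Spsb2 differed from thymus by 3.51 ± 1.24 in arch (limma adjusted p = 0.0949, or 0.00625 without arch pool 4, which had no Spsb2 read) and by 3.16 ± 1.24 in adipose tissue (limma adjusted p = 0.25). Spsb3 differed by -1.68 ± 1.13 and -0.62 ± 1.13 (limma adjusted p = 0.395 and 0.9). Spsb1 held 34.2% ± 8.88 of the reads per kilobase of Spsb1 to Spsb3 in arch and 52.9% ± 3.36 in adipose tissue, against 3.41% ± 4.25 in thymus (SD, n = 4 each). That gap in share from thymus is favoured by the choice of Spsb1.

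Of the 27 tested genes of branched-chain amino acid breakdown and transport, Slc3a2 rose in both tissues, the heavy chain that carries amino acid transporters to the cell surface. Slc3a2 had 12067, 8269, 8637 and 6274 normalised read counts in arch pools, 6816, 6974, 9992 and 5812 in adipose pools, and 2853, 3246, 2007 and 1516 in thymus pools. The ranges did not overlap with thymus, and the log2 difference was 1.89 ± 0.29 in arch (limma adjusted p = 0.00042) and 1.64 ± 0.29 in adipose tissue (limma adjusted p = 0.00216, or 0.0554 with no intensity trend). The median of the 27 genes was -0.46 in arch and 0.01 in adipose tissue. Bcat1, the cytosolic relative, was too low to test, and Bcat2 held 99.9% ± 0.206 of the reads per kilobase of the pair in arch and 99.9% ± 0.214 in adipose tissue, against 99.7% ± 0.644 in thymus (SD, n = 4 each).

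Some of the genes next to the 8 on their chromosomes were also higher outside the thymus. The nearest tested gene on either side of each makes 16 genes, a set formed after the values were seen, and 5 of them rose in each tissue (31.2%), beside 5 of the 8. Of the 652 tested genes next to the other genes called higher in arch, 7.36% rose in arch, and of the 347 next to the other genes called higher in adipose tissue, 8.65% rose in adipose tissue. The sets are not formed alike. The 16 do not overlap the gene they lie next to, while the comparison sets take the next genes in order of start, overlapping or not. Over all tested genes, 3.99% rose in arch and 2.17% in adipose tissue. No test was made of these differences. Across the alternatives between 4 and 6 of the 16 rose in arch and between 2 and 6 in adipose tissue.

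Cnbp, a zinc finger protein that binds single-stranded nucleic acids, lies 3.8 kb from Isy1 on the same strand. Cnbp had 68146, 90533, 79672 and 47041 normalised read counts in arch pools, 51316, 57779, 72095 and 63261 in adipose pools, and 20373, 27915, 21369 and 18507 in thymus pools. The log2 difference from thymus was 1.67 ± 0.19 in arch and 1.48 ± 0.19 in adipose tissue (limma adjusted p = 1.5e-05 and 9.48e-05), and its arch and adipose pools overlapped, unlike those of Isy1. On the other side of Isy1, 2.1 kb away, Rab43 differed from thymus by 2.89 ± 1.27 in arch and 4.28 ± 1.27 in adipose tissue (limma adjusted p = 0.182 and 0.0866). Without arch pool 2, the adjusted p for Rab43 was 0.0332 in arch and 0.0242 in adipose tissue, and without thymus pool 4 it was 0.0437 in adipose tissue. Rnf138, described above, lies 17.5 kb from Rnf125 on the same strand.

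Tceal1, which encodes a small nuclear protein, lies 21.5 kb from Morf4l2 on the opposite strand. It had 324, 1305, 1165 and 1825 normalised read counts in arch pools, 403, 1259, 889 and 452 in adipose pools and no read in any thymus pool. Against a floor of 3 reads in each thymus pool, it was at least 428-fold higher in arch and at least 278-fold higher in adipose tissue (limma adjusted p = 0.000559 and 0.002). Pde4b, a phosphodiesterase that breaks down cAMP, lies 134 kb from Sgip1. It had 6559, 5204, 6151 and 5574 normalised read counts in arch pools, 4759, 5163, 5674 and 7479 in adipose pools and 2000, 2430, 2853 and 1492 in thymus pools. Its log2 difference from thymus was 1.45 ± 0.27 in arch and 1.40 ± 0.27 in adipose tissue (limma adjusted p = 0.00259 and 0.0049, the second 0.0588 with no intensity trend). Ppp1r15a, a phosphatase subunit that reverses the block of translation under stress, lies 43.9 kb from Bcat2. It had 6084, 5821, 5505 and 5872 normalised read counts in arch pools, 3360, 3061, 1650 and 2732 in adipose pools and 681, 506, 0 and 985 in thymus pools. Its log2 difference from thymus was 4.31 ± 0.83 in arch and 3.16 ± 0.83 in adipose tissue (limma adjusted p = 0.00315 and 0.0456), and edgeR and the fit without the 3 pools with raised markers lost the call in arch (adjusted p = 0.0578 and 0.0552). In adipose tissue 14 of 24 alternatives lost the call, among them those without adipose pools 1, 2, 3 or 4, arch pools 1, 2 or 3 and thymus pool 2, with adjusted p-values of up to 0.127 for a pool left out. The nearest genes on either side of Gramd3, Tex2 and Spsb1 were not called.

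**Figure D5:**
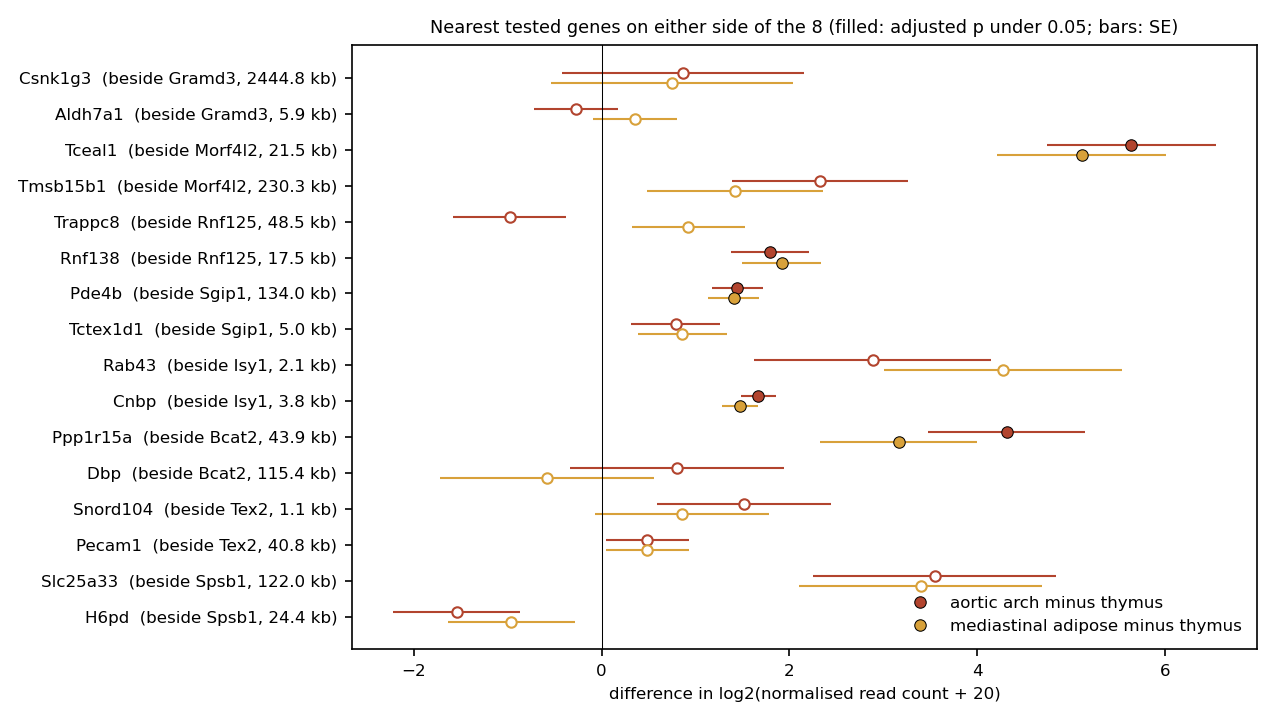
Difference in log2(normalised read count + 20) from thymus, with SE, for the nearest tested gene on either side of each of the 8, arch in red above adipose tissue in ochre. Filled points have an adjusted p under 0.05, and the distance in kilobases is that between the genes; Tceal1, Rnf138, Pde4b, Cnbp and Ppp1r15a are filled in both tissues.

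The start regions hold few letters in common. RefSeq's table had 10 start windows for 6 of the 8 genes, and the 250 bases before each start were searched on both strands. The short site TGACG was in 5 of the 10 windows, of Sgip1, Isy1 and Morf4l2, and in 17.8% of all 32851 windows. In the Sgip1 window its first base lies 7 bases before the start, on the opposite strand, and in the Isy1 window copies lie 177 and 124 bases before it. In the Morf4l2 window shown it lies 70 bases before the start and the heat shock pair 35 bases before it. The heat shock pair, GAANNTTC or TTCNNGAA, was in 2 overlapping windows of Morf4l2 and in 12.8% of all windows. The NRF2 motif TGACNNNGC was in another Morf4l2 window, 149 bases before its start, and in 10.2% of all. Neither the AP-1 motif TGANTCA, in 6.75% of all windows, nor the whole cAMP response element, which contains the short site and was in 1.55% of all, was in any of the 10. These are matches of letters in short windows and say nothing on binding.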

How the data were processed

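RNA of sorted DP cells was sequenced as 26 libraries that the authors joined into 12 pools (4 per tissue, the replicates used here). The labels do not state whether same-numbered pools of different tissues came from the same mice. Their library names run in parallel, with the letters A, B and T for pool 1 and D, F and U for the later pools. A shared set of mice or a shared batch is therefore possible. The main test treats the pools as unpaired, and p-values measure only the spread between pools. Per the labels, cDNA underwent 18 cycles of amplification, and single-end reads of 50 bp were taken. The submitters' processing notes name STAR 2.6.0c, FastQC 0.11.5 and GRCm38. How reads were counted, and on which annotation, is not given in the sources used here. Each deposited value is a normalised signal per gene and pool. In each column all values were whole multiples of the value of 1 read: 100% of 120369 values above 0 were whole within 0.01 after division by it. Totals of recovered reads are in the report.

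The main test was limma 3.58.1 (R 4.3.3) with an intensity trend on log2(value + 20). It used all 12 columns with tissue as the only term, for the 9106 genes that reached 100 in 4 columns or more. The plan named edgeR in place of limma if the values were whole counts. The deposited values are reads divided by a size factor, so limma was kept and edgeR was run on recovered reads as an alternative. The Benjamini-Hochberg adjusted p threshold was 0.05. The edgeR 4.0.16 quasi-likelihood test on recovered reads called 365 genes in arch against thymus, 212 in adipose tissue against thymus and 8 in arch against adipose tissue, and limma 598, 259 and 16. DESeq2 1.42.0 was a further alternative, with other pseudocounts, filters and scalings, pool weights, a block and left-out pools. The scripts were tested on simulated data. The pseudocount lowers the differences of genes near 0.

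The 8 genes, the 7 lists of partners, the motifs and the rule for named genes were chosen with earlier results of these data known. The rule names all 8 genes, their closest relatives where tested, up to 2 called genes per list, direction and comparison, and the 3 genes most correlated with each of the 8, without predicted genes. The neighbours were chosen after the values were seen. Gene positions are from GENCODE's annotation of GRCm38, start windows from RefSeq's table for GRCm38.p6, which has none for Gramd3 and Rnf125. For 12 other cell types, marker CPM were added up in each pool.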

Additional observations from a re-analysis of the deposited data

Results flagged for a closer look

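Among 57 groups of 4 pools (19 genes with printed pool values in 3 tissues), 3 had a single pool far from the other 3, and about 1 in 20 such groups would by chance alone. Morf4l2 in arch was 41581 normalised read counts in pool 3, against 34947 to 35885 in the other arch pools. Sgip1 in thymus was 1.46 normalised read counts in pool 3, which is 1 read, against 0 in the other thymus pools. Morf4l1 in adipose tissue was 1296 normalised read counts in pool 3, against 971 to 1021 in the other adipose pools.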

How the results depend on the processing

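All 8 genes kept their direction against thymus in both tissues under all 24 alternatives. The differences of Sgip1 ran between 4.99 and 13.34 in arch and between 4.46 and 12.88 in adipose tissue, and those of Tex2 between 5.06 and 7.40 and between 5.10 and 7.44, each with a pseudocount of 80 at the low end. Counts of called genes in arch against thymus, in adipose tissue against thymus and in arch against adipose tissue were 598, 259 and 16. Those that moved by over 1.5 times were 1007, 539 and 167 with DESeq2, 365 and 8 with edgeR in arch against each of the others, 308 and 0 there without the 3 columns of fewest reads per library (thymus pool 3, arch pools 2 and 4, called shallow), 345 and 0 there without the 3 columns with raised markers (arch pools 2 and 4, adipose pool 1, chosen after seeing the data), 333, 130 and 3 with no intensity trend, 573 in adipose tissue against thymus with pool weights, and in arch against adipose tissue 9 with a pseudocount of 5 and 2 with no filter. Leaving out 1 pool gave 404 to 620, 169 to 317 and 2 to 17 calls, with 169 in adipose tissue against thymus without adipose pool 4 and, in arch against adipose tissue, 3 without arch pool 2, 5 without arch pool 4, 2 without adipose pool 2, 9 without adipose pool 3 and 2 without adipose pool 4. Of the 8 genes, 0 were called in arch against adipose tissue with any pool left out (0 to 0) and 1, Isy1 at -1.35, with DESeq2. Partner genes called numbered 6, 3 and 0, with 12 in arch against thymus and 1 in arch against adipose tissue, Fcho1, with DESeq2 and 1 in adipose tissue against thymus with no intensity trend, and leaving out 1 pool gave 5 to 8, 2 to 4 and 0 to 0. The cause of these changes was not tested.

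Differences near 0 changed sign. In arch against adipose tissue, Morf4l2 had -0.0115 with TMM scaling, -0.0136 with edgeR, -0.0207 with pool weights, and -0.11 to 0.14 with a pool left out (-0.03 without arch pool 3, -0.11 without adipose pool 2). Tex2 had -0.36 to 0.20 with a pool left out (above 0 without arch pools 3 and 4 and adipose pools 1 and 4) and 0.0568 without the columns with raised markers, where Sgip1 had -0.13 and Bcat2 0.0044. In adipose tissue against thymus Esyt2 had -0.56 to 0.24 with a pool left out (above 0 without adipose pools 3 and 4 and thymus pools 1 and 2). In arch against thymus Fcho2 had -0.67 to 0.12 with a pool left out (above 0 without arch pool 1), Rnf114 -0.17 to 0.0624 (above 0 without arch pools 1 and 2 and thymus pool 1) and Spsb3 -2.55 to 0.12 (above 0 without arch pool 2), 0.44 without the shallow columns and 0.44 without the columns with raised markers. A block for the pool number gave 608, 243 and 12 calls and ended the call of Cwc15 in arch (limma adjusted p = 0.0515). Deviations of same-numbered pools correlated at -0.03 to 0.08, and those of differently numbered pools at -0.09 to 0.07. In adipose tissue against thymus the same-numbered values were 0.08, 0.06, -0.03 and 0.05 for pools 1 to 4. Correlations this small cannot decide whether same-numbered pools are paired. Sgip1, Tex2 and Spsb1 had 0 to 2 reads in some thymus pools, which limits the precision of their ratios.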
